A study of Homo sapiens with 16 samples.

Results

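The MYST family of histone acetyltransferases was followed, with its MSL and ING partners, in 2 human multiple myeloma cell lines in which the gene KANSL2 was repressed. The 10 members were taken by their gene symbols, out of 28277 symbols in each table: the catalytic genes KAT5, KAT6A, KAT6B, KAT7 and KAT8, the MSL subunits MSL1, MSL2 and MSL3, and the histone readers ING4 and ING5. All 10 were found in both tables, and all 10 reached the minimum mean of 3 that was set for testing. INA6 and JJN3 are established plasma cell lines, INA6 being known to need interleukin 6 for growth. In each line, 3 RNA libraries came from cells with CRISPR interference against KANSL2 (a catalytically dead Cas9 fused to a repressor domain, brought to the gene by a guide RNA) and 3 from cells with a non-targeting guide in the same system. No other treatment was given to either arm, and the labels name neither the guides nor whether cells were cloned or replicates were separate cultures, so the spread behind each p-value is that of these libraries and could be technical. Another 4 JJN3 chromatin accessibility libraries, 2 per arm, were not analysed here.

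MYST enzymes share a catalytic domain and work inside larger complexes that decide where they act. KAT8 is the catalytic subunit of 2 separate assemblies: the NSL complex, which holds KANSL2 and sits mostly at promoters of genes used by every cell, and the MSL complex, which acetylates histone H4 and was found through dosage compensation in Drosophila. KAT5 works in the TIP60 complex, KAT7 with BRPF or JADE scaffolds together with ING4 or ING5, and KAT6A and KAT6B with BRPF scaffolds and ING5. The comparison therefore asks whether the other assembly of KAT8, or the other MYST enzymes, had more messenger RNA where the NSL subunit KANSL2 was repressed, as would be looked for if 1 assembly made up for another.

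The tables hold rlog (regularised log) values in log2 units, which the authors deposited separately for each line. A difference is the mean of the knockdown libraries minus the mean of the non-targeting libraries, in log2 units, and a gene was called where its limma adjusted p was below 0.05. Levels are not set against each other between genes or between lines. In these bulk samples, fewer expressing cells and less RNA per cell cannot be told apart, and scaling removes any change in total RNA. The depth of the libraries is unknown because the tables hold no counts. The leading principal component separated the arms in both lines, with 78.7% of the variance in INA6 and 78.9% in JJN3. All 9 plasma cell markers were above the minimum mean in both lines (SDC1, CD38, TNFRSF17, SLAMF7, XBP1, PRDM1, IRF4, JCHAIN and MZB1). Their average rlog value was 11.68 to 11.80 in INA6 knockdown libraries against 12.04 to 12.08 in non-targeting libraries, and 11.24 to 11.29 against 11.08 to 11.15 in JJN3. The markers did not all move with this average. In INA6 6 fell and 2 rose (differences from −0.89 to 0.29), and in JJN3 5 rose and 1 fell (−0.50 to 0.58). Of all tested genes, 48.6% were called in INA6 and 51.0% in JJN3. Of the markers of other cells, 2 of 6 T and NK cell, 1 of 7 myeloid and 0 of 6 stromal genes reached the minimum in INA6, and 1, 1 and 0 in JJN3. Those that reached it were CD3E, NKG7 and CD14 in INA6, and CD3E and CD14 in JJN3. Among these, only CD3E in JJN3 was called (−0.18). At 0 were S100A8, S100A9 and LUM in INA6, and CD3D, CD3G, LYZ, S100A9, MPO, DCN, LUM and PDGFRB in JJN3. The average of such a list was at most 1.05 in any INA6 knockdown library and 1.10 in any INA6 non-targeting library, and at most 1.06 in JJN3 knockdown and 1.11 in JJN3 non-targeting libraries. The part of these shifts in the members' values was not tested.

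The repression itself was stronger in JJN3. KANSL2 had rlog values of 7.71, 7.60 and 7.76 in INA6 knockdown libraries, against 8.06, 8.02 and 8.16 in non-targeting libraries, which leaves 76.4% of the control level. In JJN3 it had 6.00, 5.98 and 6.06 in knockdown libraries, against 7.25, 7.24 and 7.19 in non-targeting libraries, which leaves 43.1%. The difference was −0.39 (adjusted p = 3.06e-05) in INA6 and −1.21 (adjusted p = 1.48e-16) in JJN3, and INA6 minus JJN3 was 0.82 (adjusted p = 2.11e-11).

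The members did not move as a group. In INA6, KAT7, MSL1 and ING5 rose, MSL3 and ING4 fell, and KAT5, KAT6A, KAT6B, KAT8 and MSL2 were not called. In JJN3, KAT7 rose, KAT8, MSL1 and ING4 fell, and the other 6 were not called. Thus 5 of 10 members were called in INA6, where 48.6% of the 12511 genes tested were called, and 4 of 10 in JJN3, where 51.0% of 12282 were called. The 3 members that rose in INA6 stand beside 24.7% of all genes that rose there, and the 2 that fell beside 24.0%; in JJN3 1 rose and 3 fell, beside 25.5% and 25.5% of all genes. These shares are near the background. When each INA6 library was centred on its median, the calls over all genes were 3904 higher and 2400 lower, against 3084 and 3000 without centring. In JJN3 centring gave 3768 higher and 2571 lower, against 3135 and 3129. The median difference of the members was 0.054 in INA6 and 0.025 in JJN3, where the median over all tested genes was 0.00094 and 0.0010. The median absolute difference was 0.11 and 0.090, beside 0.13 and 0.12 over all genes. No member changed by 1 log2 unit or more; the largest absolute difference was 0.41 in INA6 and 0.55 in JJN3, both of ING4.

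**Figure D1:**
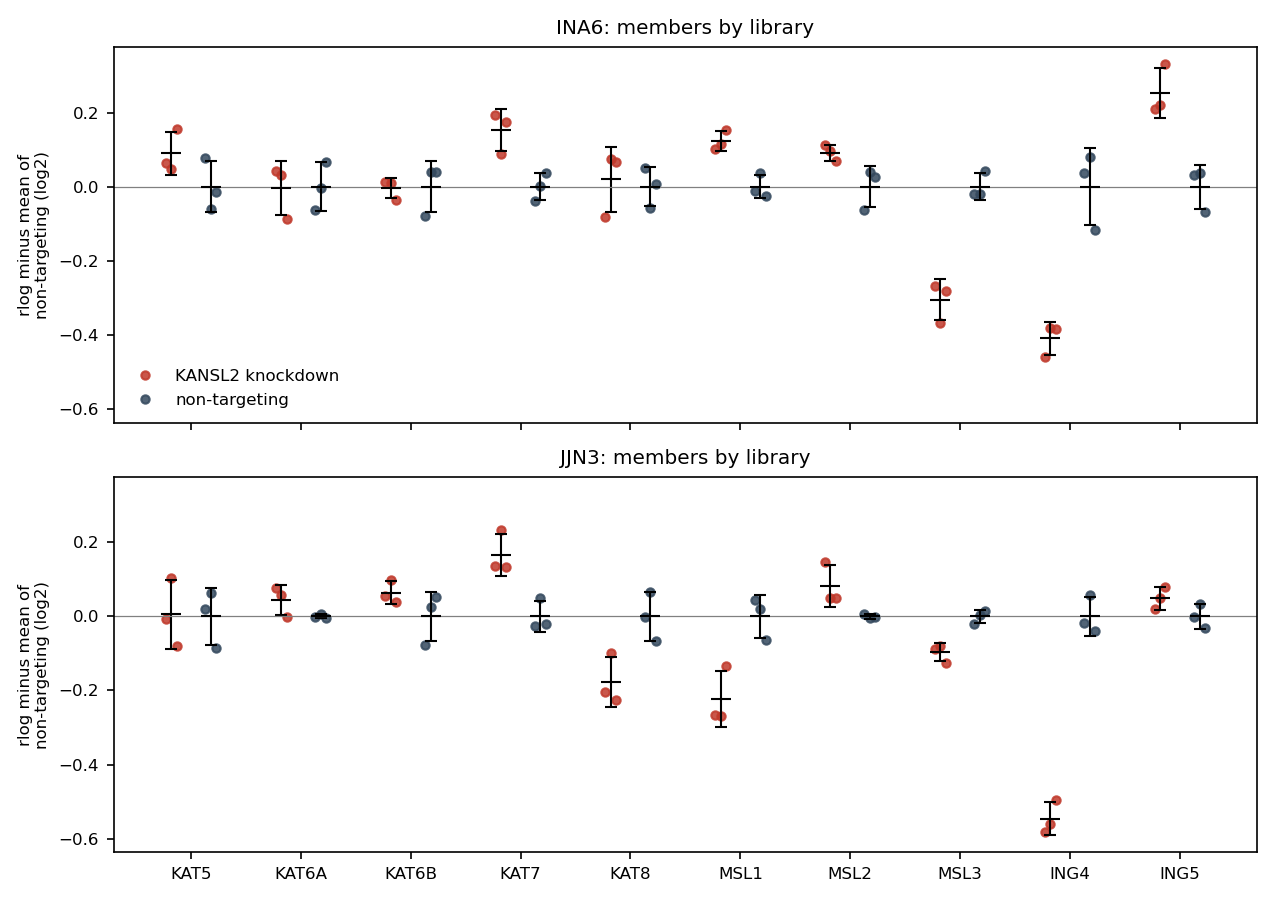
Each point is 1 library: its rlog value minus the mean of the 3 non-targeting libraries of the same line (y axis, log2 units), for the 10 members (x axis), with KANSL2 knockdown at left and non-targeting at right of each gene; bars show the mean and SD of 3 libraries. ING4 lies below its controls in both lines, MSL1 above them in INA6 and below them in JJN3, and KAT7 above them in both.

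ING4 was the member that fell most in both lines. It encodes a plant homeodomain finger protein that binds methylated histone H3 and brings KAT7 complexes to chromatin. In INA6 its rlog values were 5.34, 5.42 and 5.42 in knockdown libraries, against 5.84, 5.88 and 5.69 in non-targeting libraries. In JJN3 they were 6.41, 6.44 and 6.50 in knockdown libraries, against 6.98, 7.05 and 6.96 in non-targeting libraries. Every knockdown library lay below every non-targeting library of its line. The difference was −0.41 (SE 0.0634, adjusted p = 2e-05) in INA6, which leaves 75.3% of the control level, and −0.55 (SE 0.0567, adjusted p = 3.67e-09) in JJN3, which leaves 68.5%. Among all tested genes this was the fall of rank 479 in INA6 and of rank 104 in JJN3, and 6.23% and 1.42% of the genes had a larger absolute difference. The fall did not differ detectably between lines: INA6 minus JJN3 was 0.14, with a 95% interval from −0.034 to 0.31 (adjusted p = 0.23).

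ING5, the close relative of ING4 that serves both KAT7 and KAT6 complexes, went the other way in INA6. Its INA6 rlog values were 10.21, 10.22 and 10.33 in knockdown libraries, against 10.03, 10.04 and 9.93 in non-targeting libraries, with no overlap. It rose by 0.25 (SE 0.0492, adjusted p = 0.000231), which is 19.2% above the control level. In JJN3 the values were 9.72, 9.75 and 9.78 in knockdown libraries, against 9.70, 9.74 and 9.67 in non-targeting libraries. The JJN3 groups overlapped, and the difference of 0.050 was not called (95% interval −0.039 to 0.14, adjusted p = 0.353). The change of ING5 was larger in INA6 than in JJN3 by 0.20 (SE 0.0656, adjusted p = 0.0144), in a test where 30.0% of 11137 genes differed between lines. That call was lost without INA6 knockdown replicate 3 (0.17, adjusted p = 0.0503) or INA6 non-targeting replicate 3 (0.17, adjusted p = 0.068).

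The log2 ratio of ING4 to ING5 within a library, in which a constant added to all rlog values of that library cancels, was lower in knockdown cells of both lines. It was −4.87, −4.80 and −4.91 in INA6 knockdown libraries, against −4.19, −4.16 and −4.25 in non-targeting libraries. In JJN3 it was −3.31, −3.32 and −3.28 in knockdown libraries, against −2.72, −2.68 and −2.71 in non-targeting libraries. The difference was −0.66 in INA6 and −0.60 in JJN3, with SDs of 0.0570 and 0.0454 in the INA6 arms and 0.0179 and 0.0224 in the JJN3 arms (n = 3 each), so both exceeded the spread between libraries. The fall of ING4 (−0.41 in INA6 and −0.55 in JJN3) makes up more of these differences than the change of ING5 (0.25 and 0.050). An exact two-sided permutation test of the ratio gave p = 0.1 in each line, the smallest that 3 against 3 libraries allow.

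The letters before the start sites of ING4 and ING5 are shown because this pair of relatives differed most among the members, and those of MSL1 because it moved in opposite directions in the lines. The sequences are the 250 bases before the annotated start in RefSeq, build GRCh38.p14, written 5′ to 3′ along the gene's own strand. A window of this length was available for 8 of 10 members. Capitals mark GGGCGG on either strand (CCGCCC on the other), the GC box bound by SP and KLF factors. The windows are chr12:6663120-6663369 on the minus strand for ING4, chr2:241686770-241687019 on the plus strand for ING5 and chr17:40121721-40121970 on the plus strand for MSL1.
ING4: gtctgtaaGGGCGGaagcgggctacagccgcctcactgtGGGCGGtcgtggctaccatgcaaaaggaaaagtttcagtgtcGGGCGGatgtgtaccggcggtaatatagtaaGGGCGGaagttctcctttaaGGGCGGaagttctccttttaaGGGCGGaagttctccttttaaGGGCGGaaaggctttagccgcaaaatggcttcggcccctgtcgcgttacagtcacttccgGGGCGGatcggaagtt
ING5: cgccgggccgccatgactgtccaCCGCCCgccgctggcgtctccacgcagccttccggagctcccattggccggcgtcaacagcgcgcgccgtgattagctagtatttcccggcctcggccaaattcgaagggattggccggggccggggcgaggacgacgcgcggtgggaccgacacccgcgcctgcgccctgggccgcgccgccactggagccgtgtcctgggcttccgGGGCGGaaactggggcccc
MSL1: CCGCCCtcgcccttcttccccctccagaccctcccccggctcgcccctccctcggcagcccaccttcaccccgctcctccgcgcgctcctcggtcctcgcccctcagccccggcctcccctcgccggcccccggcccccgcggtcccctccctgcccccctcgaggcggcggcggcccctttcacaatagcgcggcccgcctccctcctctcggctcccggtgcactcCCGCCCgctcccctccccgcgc
GGGCGG was found 8 times in the ING4 window, 2 times in that of ING5 and 2 times in that of MSL1. Of the other members' windows, that of MSL3 held 6 matches, that of MSL2 held 1, and those of KAT5, KAT6B and KAT7 held 0. The KAT5 window (65712002 to 65712251) lies almost wholly inside the annotated gene, which starts at 65712018. That of KAT6B (74825005 to 74825254) lies wholly inside its gene, which starts at 74824936. The counts of 0 for KAT5 and KAT6B therefore do not describe the letters before these gene starts. At least 8 matches were present in 0.584% of 35116 windows of the same length, at least 6 in 2.22% and at least 2 in 24.3%. In ING4, 3 of the matches lie in copies of a repeated unit of 20 bases, taaGGGCGGaagttctcctt, and 1.06% of the windows hold any 20-base word 3 or more times. The ETS core CCGGAAG, searched on both strands, occurred 1 time in ING4, 2 times in ING5 and 0 times in MSL1, and in 8.52% of all windows. CCAAT occurred 2 times in ING5 and in neither of the other windows, and in 32.0% of all windows. TATAAA and the E-box CACGTG were in none of the 3 windows, and in 10.7% and 6.34% of all windows. These matches describe the letters and are not shown to be bound.

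ING4 did not sit in a stretch of falling genes. It lies on chromosome 12 from 6650301 to 6663119, on the same chromosome as KANSL2 (48653211 to 48682238) but far from it. Of the 6 nearest tested protein-coding genes, all within 94.3 kb, 3 rose and 1 fell in INA6, and 2 rose and 1 fell in JJN3. The chromatin remodeller CHD4, next to it at lower coordinates, rose by 0.20 (adjusted p = 0.000501) in INA6 and by 0.14 (adjusted p = 0.00451) in JJN3. NOP2, an RNA methyltransferase of ribosome assembly, rose by 0.45 (adjusted p = 3.02e-07) and 0.41 (adjusted p = 1.09e-08). Beyond the other end, ZNF384, a zinc finger factor gene 3.36 kb away, rose by 0.13 in INA6 (adjusted p = 0.0292) and was at −0.026 in JJN3 (adjusted p = 0.652). COPS7A, a subunit of the COP9 signalosome, fell by 0.34 (adjusted p = 7.97e-05) and 0.22 (adjusted p = 0.0011). IFFO1 was at −0.11 and 0.011 and MLF2 at 0.050 and 0.049, none called.

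**Figure D2:**
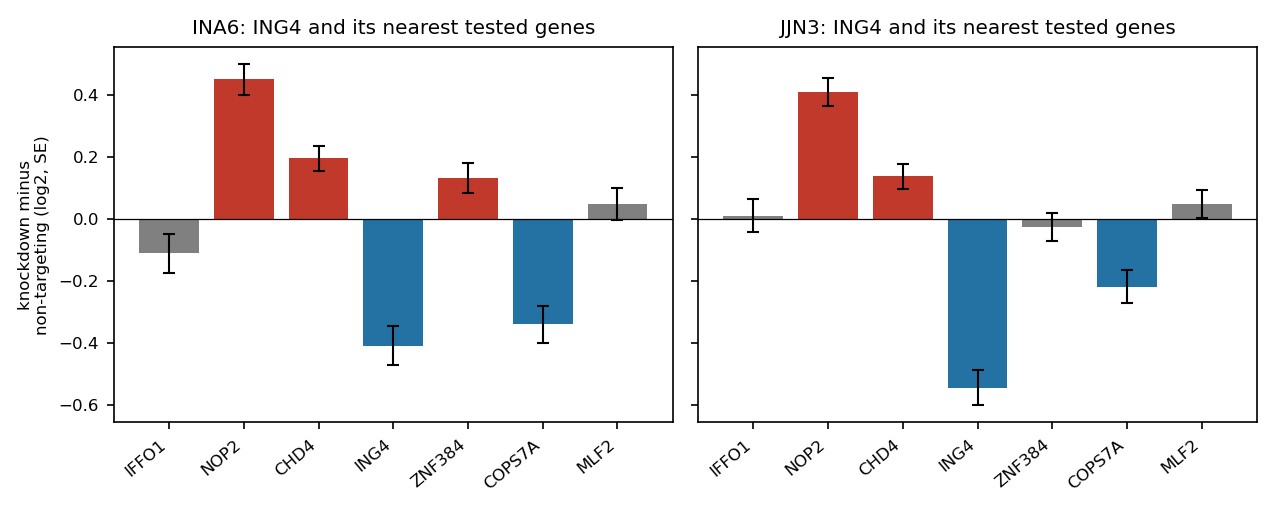
Bars give the difference, knockdown minus non-targeting, in log2 units with its SE (n = 3 per arm), for ING4 and the nearest tested protein-coding genes in chromosomal order, in INA6 (left) and JJN3 (right); red bars were called higher, blue lower and grey not called. ING4 is at −0.41 and −0.55 while NOP2 is at 0.45 and 0.41.

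Of the MSL subunits, MSL1 changed in opposite directions in the lines. It is the scaffold that holds KAT8, MSL2 and MSL3 together (chromosome 17, 40121971 to 40136917). In INA6 its rlog values were 11.27, 11.28 and 11.32 in knockdown libraries, against 11.16, 11.21 and 11.15 in non-targeting libraries. In JJN3 they were 11.00, 11.00 and 11.13 in knockdown libraries, against 11.31, 11.29 and 11.20 in non-targeting libraries. The groups did not overlap in either line, with the knockdown libraries on the high side in INA6 and on the low side in JJN3. The difference was 0.12 in INA6 (SE 0.0418, adjusted p = 0.0186), 8.93% above the control level, and −0.22 in JJN3 (SE 0.0434, adjusted p = 8.27e-05), where 85.7% of the control level was left. INA6 minus JJN3 was 0.35 (SE 0.0602, adjusted p = 1.01e-05). Quantile normalisation ended the INA6 call (0.041, adjusted p = 0.421), and it was also lost with the replicate number as a block (adjusted p = 0.0600) and without non-targeting replicate 1 (0.12, adjusted p = 0.0616) or 3 (0.11, adjusted p = 0.0773), and its adjusted p over the alternatives ran between 0.00293 and 0.421. The JJN3 fall was called under each of the 13 alternatives.

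MSL3, the chromodomain subunit that guides the MSL complex to transcribed genes, fell in INA6. Its INA6 rlog values were 8.81, 8.70 and 8.79 in knockdown libraries, against 9.05, 9.05 and 9.11 in non-targeting libraries. The difference of −0.31 (SE 0.0523, adjusted p = 6.18e-05) leaves 80.9% of the control level. In JJN3 the values were 7.78, 7.79 and 7.74 in knockdown libraries, against 7.85, 7.87 and 7.88 in non-targeting libraries, with no overlap, and the difference of −0.097 was not called (95% interval −0.20 to 0.0095, adjusted p = 0.122). INA6 minus JJN3 was −0.21 (SE 0.0740, adjusted p = 0.0272). That call was lost with the replicate number as a block (adjusted p = 0.0508) and without 1 of 4 libraries: INA6 knockdown replicate 2 (−0.18, adjusted p = 0.101), INA6 non-targeting replicate 3 (−0.19, 0.079), JJN3 knockdown replicate 2 (−0.20, 0.0607) or JJN3 non-targeting replicate 1 (−0.20, 0.059). MSL3 has a close copy on chromosome 2, listed in the tables as MSL3P1 and in RefSeq as MSL3B (233864663 to 233868386), so reads of the pair could be split between them. MSL3P1 had rlog values of 7.66, 7.62 and 7.67 in JJN3 knockdown libraries, against 7.78, 7.74 and 7.82 in non-targeting libraries, a fall of 0.13 (adjusted p = 0.0399). In INA6 it lay between 2.45 and 2.51 in knockdown libraries and between 2.49 and 2.56 in non-targeting libraries, below the minimum for testing.

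MSL2, the ubiquitin ligase subunit of the MSL complex, was not called in either line. Its INA6 values were 10.75, 10.74 and 10.71 in knockdown libraries, against 10.58, 10.68 and 10.67 in non-targeting libraries, a difference of 0.092 (95% interval −0.00067 to 0.18, adjusted p = 0.0935). Its JJN3 values were 10.26, 10.16 and 10.16 in knockdown libraries, against 10.12, 10.11 and 10.11 in non-targeting libraries, a difference of 0.083 (−0.0045 to 0.17, adjusted p = 0.106). The knockdown libraries were the higher ones in both lines without overlap. Arms without overlap, in either direction, were found for 55.2% of all tested genes in INA6 and 56.1% in JJN3. Centring each library on its median, which shifted the median difference by 0.037 in INA6 and 0.027 in JJN3, gave a call in INA6 (0.13, adjusted p = 0.0201) and in JJN3 (0.11, adjusted p = 0.0325). Quantile normalisation left MSL2 at 0.046 (adjusted p = 0.395) in INA6 and 0.017 (adjusted p = 0.763) in JJN3. In each line it stayed uncalled under 12 of the 13 alternatives. Of the 3 MSL subunits, then, 1 rose and 1 fell in INA6, and 0 rose and 1 fell in JJN3.

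KAT8 itself, the enzyme that both assemblies use, was not called in INA6 and fell in JJN3. It lies on chromosome 16 from 31117664 to 31131393. In INA6 its rlog values were 7.53, 7.68 and 7.67 in knockdown libraries, against 7.66, 7.55 and 7.61 in non-targeting libraries, and the groups overlapped. The INA6 difference was 0.020, with a 95% interval from −0.11 to 0.15 (adjusted p = 0.817). In JJN3 the values were 7.45, 7.56 and 7.43 in knockdown libraries, against 7.66, 7.73 and 7.59 in non-targeting libraries, without overlap. The JJN3 difference of −0.18 (SE 0.0567, adjusted p = 0.0101) leaves 88.5% of the control level. Quantile normalisation ended that call (−0.13, adjusted p = 0.0647), as did leaving out non-targeting replicate 2 (−0.14, adjusted p = 0.0695); over all alternatives the adjusted p ran between 0.00675 and 0.0695. INA6 minus JJN3 was 0.20 with a 95% interval from 0.026 to 0.37, which did not pass after adjustment (adjusted p = 0.0724, range over the alternatives 0.0237 to 0.182).

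Among the 4 MYST enzymes other than KAT8, KAT7 rose in both lines and the other 3 were not called in either. KAT7, also called HBO1, acetylates histones H3 and H4 at origins of replication and at transcribed genes. Its INA6 rlog values were 9.49, 9.38 and 9.47 in knockdown libraries, against 9.26, 9.30 and 9.33 in non-targeting libraries. Its JJN3 values were 9.35, 9.44 and 9.34 in knockdown libraries, against 9.18, 9.26 and 9.19 in non-targeting libraries. All knockdown libraries lay above all non-targeting libraries of their line. The rise was 0.15 (SE 0.0501, adjusted p = 0.016) in INA6 and 0.17 (SE 0.0465, adjusted p = 0.00351) in JJN3, or 11.1% and 12.3% above the control level. A larger absolute difference was found in 43.3% of tested genes in INA6 and 35.1% in JJN3. INA6 minus JJN3 was −0.015, with a 95% interval from −0.15 to 0.12. In INA6 the call was lost without non-targeting replicate 1 (0.13, adjusted p = 0.0731; range over the alternatives 0.00348 to 0.0731). KAT7 shares 430 bases with FAM117A in the annotation, and without stated strand use reads there cannot be assigned. FAM117A was at −0.13 in INA6 (adjusted p = 0.0334) and at 0.21 in JJN3 (adjusted p = 0.00012), and its INA6 fall was not called after median centring (−0.089, adjusted p = 0.128).

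KAT5, KAT6A and KAT6B were not called in either line, but the INA6 interval of KAT5 includes the rise of 0.15 called for KAT7 there. KAT5, which also acetylates proteins of the DNA damage response, lay between 6.35 and 6.46 in INA6 knockdown libraries and between 6.25 and 6.38 in non-targeting libraries, a difference of 0.089 (95% interval −0.043 to 0.22, adjusted p = 0.258). In JJN3 it lay between 5.76 and 5.94 in knockdown libraries and between 5.75 and 5.90 in non-targeting libraries, a difference of 0.0055 (−0.11 to 0.12, adjusted p = 0.944). KAT5 shares 1932 bases with RNASEH2C, which was at 0.044 in INA6 (adjusted p = 0.511) and rose by 0.33 in JJN3 (adjusted p = 3.59e-06). Quantile normalisation called KAT5 higher in INA6 (0.16, adjusted p = 0.0388).

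The paralogs KAT6A and KAT6B, acetylators of histone H3 of which KAT6A is known for its role in blood stem cells, overlapped between arms in both lines. In INA6 KAT6A lay between 10.13 and 10.26 in knockdown libraries and between 10.15 and 10.29 in non-targeting libraries, a difference of −0.0049 (95% interval −0.11 to 0.099). KAT6B in INA6 lay between 9.64 and 9.69 in knockdown libraries and between 9.60 and 9.72 in non-targeting libraries, a difference of −0.0035 (−0.11 to 0.099). Rises or falls above these bounds are outside the intervals. In JJN3 the differences were 0.044 (−0.037 to 0.13) for KAT6A and 0.064 (−0.035 to 0.16) for KAT6B. The log2 ratio of KAT6A to KAT6B within a library differed by −0.0014 in INA6 and −0.020 in JJN3 between arms, below its SD of 0.0453 and 0.0385 in the INA6 arms and 0.0351 and 0.0666 in the JJN3 arms (exact two-sided permutation p = 0.9 and 0.7).

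**Figure D3:**
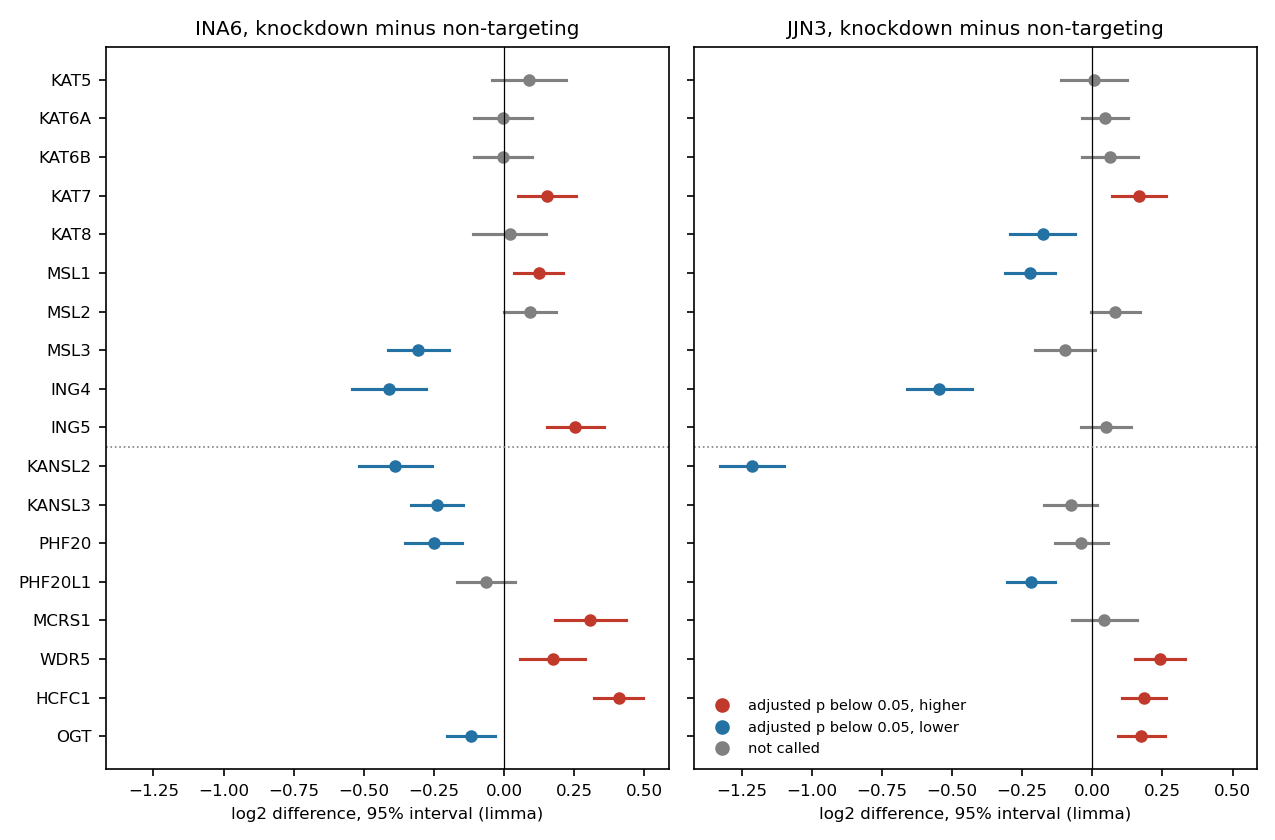
Points give the difference, knockdown minus non-targeting, in log2 units with its 95% interval from limma (n = 3 per arm), for the 10 members above the dotted line and the other tested NSL subunits below it, in INA6 (left) and JJN3 (right); red was called higher, blue lower and grey not called. The members' differences lie between −0.55 and 0.25, while KANSL2 is at −0.39 in INA6 and −1.21 in JJN3.

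The balance of MSL against NSL subunits was set out within libraries, as the log2 ratio to KANSL3, a core NSL subunit that is not part of the MSL complex. In INA6 the ratio of MSL1 to KANSL3 was 1.15, 1.23 and 1.23 in knockdown libraries, against 0.81, 0.89 and 0.81 in non-targeting libraries, a difference of 0.36. The INA6 ratio of MSL2 to KANSL3 was 0.63, 0.68 and 0.61 in knockdown libraries, against 0.23, 0.36 and 0.33 in non-targeting libraries, a difference of 0.33. KANSL3 had itself fallen by 0.24 in INA6 (adjusted p = 0.000159), which makes up more of these differences than the change of MSL1 (0.12) or MSL2 (0.092). The ratio of KAT8 to KANSL3 differed by 0.26 and that of MSL3 to KANSL3 by −0.068. In JJN3, where KANSL3 was not called (−0.076, adjusted p = 0.17), the ratio to KANSL3 differed by −0.15 for MSL1, 0.16 for MSL2, −0.021 for MSL3 and −0.10 for KAT8. The MSL subunits therefore took no common direction relative to KANSL3 in either line. The exact two-sided permutation p was 0.1 for all 4 ratios in INA6 and for MSL1 and MSL2 in JJN3, the smallest possible, and 0.7 for MSL3 and 0.3 for KAT8 in JJN3.

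**Figure D4:**
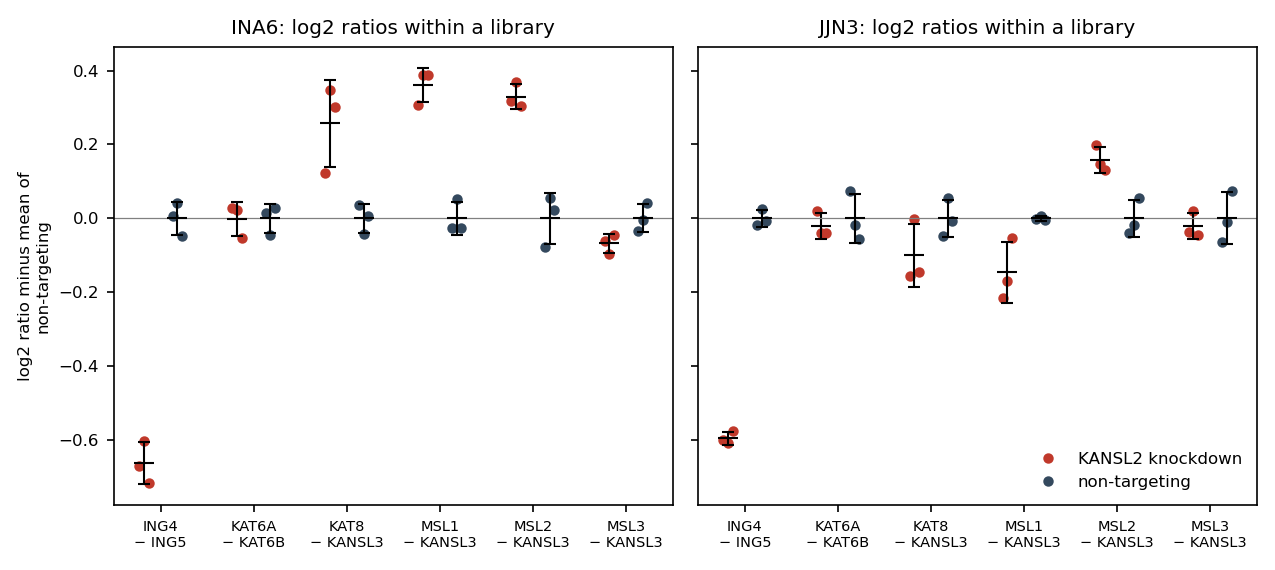
Each point is the log2 ratio of 2 genes in 1 library minus the mean of the 3 non-targeting libraries of that line (y axis), for 6 pairs of genes (x axis), with knockdown at left and non-targeting at right of each pair; bars show the mean and SD of 3 libraries. The ratio of ING4 to ING5 is lower by 0.66 in INA6 and 0.60 in JJN3, and MSL1 against KANSL3 is higher by 0.36 in INA6 and lower by 0.15 in JJN3.

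Beside the members, 3 of the other 7 tested NSL subunits rose and 3 fell in INA6, and 3 rose and 1 fell in JJN3, where 48.6% and 51.0% of all tested genes were called. HCFC1, a scaffold shared with other chromatin complexes, rose in both lines (0.41 and 0.18), as did the WD repeat protein WDR5 (0.17 and 0.24). Quantile normalisation ended the HCFC1 call in JJN3 (0.081, adjusted p = 0.0553) and the WDR5 call in INA6 (0.12, adjusted p = 0.081). The INA6 rise of WDR5 was also not called without knockdown replicate 2 (adjusted p = 0.0751) or non-targeting replicates 2 (0.0597) or 3 (0.0894). MCRS1, a subunit also found in the INO80 remodeller, rose by 0.31 in INA6 and was at 0.044 in JJN3 (adjusted p = 0.538). PHF20, a reader of methylated lysine, fell by 0.25 in INA6 and was at −0.038 in JJN3 (adjusted p = 0.51). OGT, the enzyme that adds N-acetylglucosamine to nuclear proteins, fell by 0.12 in INA6 and rose by 0.18 in JJN3. Quantile normalisation ended its JJN3 call (0.084, adjusted p = 0.0923). Its INA6 call was lost with median centring (−0.081, adjusted p = 0.104), with the replicate number as a block (adjusted p = 0.0669) and without knockdown replicate 2 (0.0777) or non-targeting replicates 1 (0.0903) or 2 (0.0518). PHF20L1, a relative of PHF20, was at −0.065 in INA6 (adjusted p = 0.297) and fell by 0.22 in JJN3 (adjusted p = 7.61e-05). KANSL1 had rlog values of 1.15 to 1.18 in INA6 knockdown libraries against 1.12 to 1.16 in non-targeting libraries, and 0.73 to 0.75 against 0.72 to 0.77 in JJN3. It was below the minimum and was not tested, which does not show that it was absent.

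The partners that carry the MYST enzymes moved in both directions. Over all tested genes, 24.7% rose and 24.0% fell in INA6, and 25.5% and 25.5% in JJN3. Of 17 TIP60 complex partners of KAT5, 9 rose and 2 fell in INA6, with a median of 0.15, against 4 up and 4 down and a median of 0.040 in JJN3. The enhancer of polycomb scaffold EPC2 rose by 0.36 in INA6 and by 0.15 in JJN3 (adjusted p = 0.0288 in JJN3). EPC1 rose in INA6 (0.32) and was at 0.10 in JJN3 (adjusted p = 0.0874). The histone variant loader VPS72 fell in both lines (−0.20 and −0.21). DMAP1 rose by 0.16 in INA6 (adjusted p = 0.0358) and fell by 0.29 in JJN3 (adjusted p = 8.38e-05). ING3, the reader of that complex, rose by 0.18 in INA6 and 0.23 in JJN3, and the helicase gene RUVBL1 by 0.15 and 0.22. Of 7 genes of KAT6 and KAT7 complexes, the scaffolds and the small shared subunit MEAF6, 3 rose and 0 fell in INA6 (median 0.078). In JJN3 4 rose and 1, MEAF6, fell (median 0.11). Thus 3 of 7 and 5 of 7 were called, beside 48.6% and 51.0% of all tested genes. BRPF1, the scaffold of KAT6 complexes, rose by 0.22 and 0.30. JADE2, a scaffold that pairs KAT7 with histone H4, rose by 0.36 in INA6 and was at −0.083 in JJN3 (adjusted p = 0.116), JADE3 was at 0.020 in INA6 (adjusted p = 0.824) and rose by 0.16 in JJN3, and BRPF3 rose by 0.23 in INA6 and was at −0.0062 in JJN3 (adjusted p = 0.928). MEAF6, which is also counted among the TIP60 partners, was at 0.078 in INA6 (adjusted p = 0.185) and fell by 0.16 in JJN3. Unlike the calls of members and NSL subunits, those of genes in the partner lists were not rerun under the alternatives.

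Of the other ING readers, ING1, which works with deacetylases, was at −0.11 in INA6 (adjusted p = 0.0819) and fell by 0.18 in JJN3. Of the deacetylases, HDAC1 rose by 0.21 in INA6 and 0.12 in JJN3 (adjusted p = 0.0279 in JJN3). The sirtuin SIRT6 fell by 0.24 in INA6 and 0.13 in JJN3 (adjusted p = 0.04 in JJN3). SIRT1, which removes acetyl groups from histone H4, rose by 0.24 in INA6 and was at 0.094 in JJN3 (adjusted p = 0.119).

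**Figure D5:**
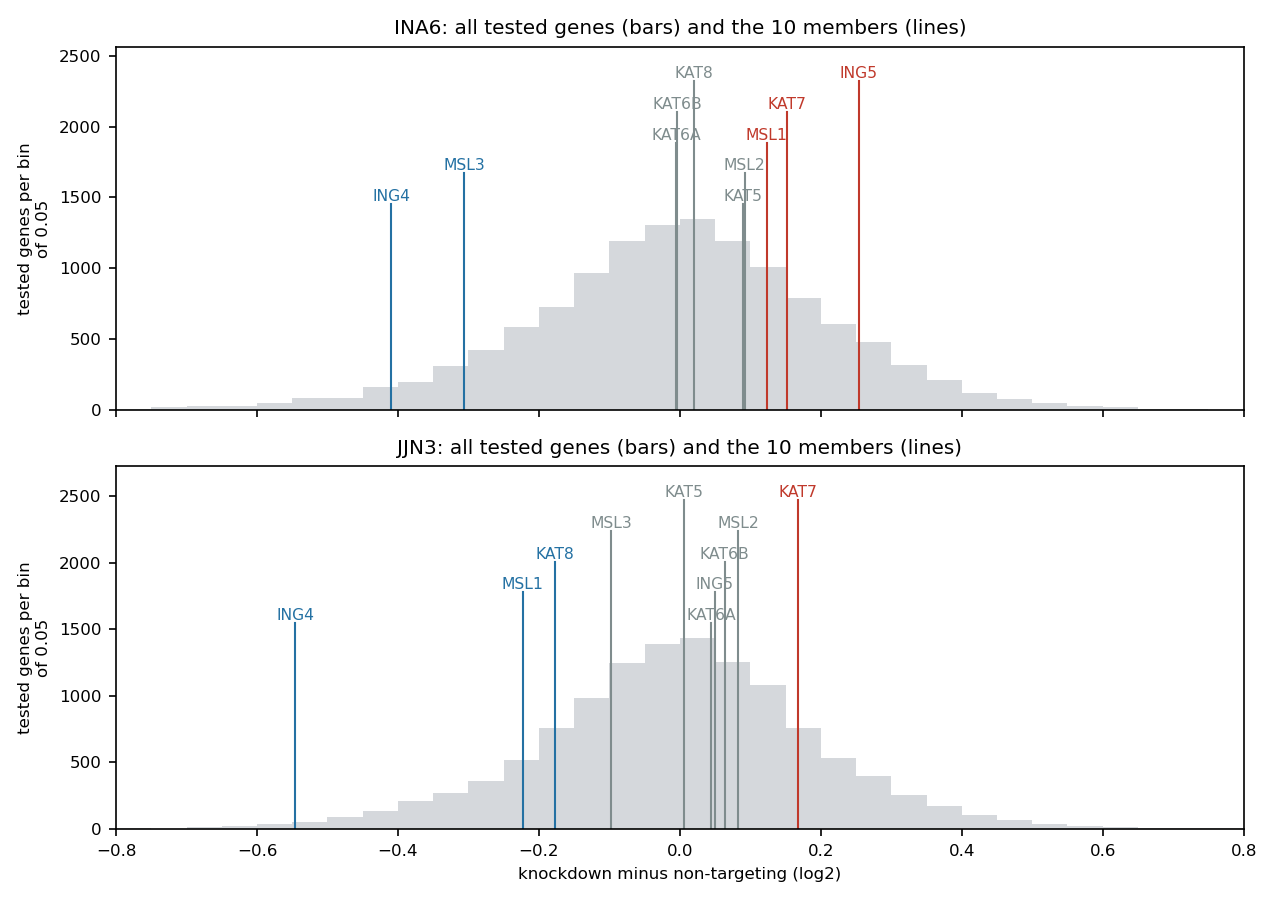
Bars count all tested genes (y axis) by their difference, knockdown minus non-targeting, in log2 units (x axis, shown from −0.8 to 0.8), in INA6 (top, 12511 genes) and JJN3 (bottom, 12282 genes); lines mark the 10 members, red where called higher, blue where called lower and grey where not called. Most members lie within the body of the distribution, and ING4 lies in its lower tail in both lines.

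Across the lines, 6 of 10 members had the same sign of difference. KAT7, MSL1 and ING4 were called in both, KAT7 and ING4 in the same direction and MSL1 in opposite ones. In each line 6 members had non-overlapping arms, which 55.2% of tested genes had in INA6 and 56.1% in JJN3. The change differed between lines for MSL1, MSL3 and ING5, 3 of 10 members, beside 30.0% of all genes tested. Within an arm, the SDs of the members ran up to 0.103 in INA6 and 0.0929 in JJN3, so differences of about 0.1 are close to the spread between libraries.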

How the data were processed

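Per the labels' protocols, messenger RNA was selected on poly-T beads and reverse transcribed from random primers. Whether strand was used in counting is not given in the sources here. The submitters' processing notes name hg38, DESeq2, HTSeq, Bowtie2 and Trim Galore, without versions. The authors deposited rlog values on the log2 scale for 6 libraries per line; rlog shrinks genes with few reads towards their mean, so it understates their changes. Genes with a mean of at least 3 were tested with limma 3.58.1 in R 4.3.3 (lmFit, eBayes with trend, two-sided, Benjamini-Hochberg over all genes tested, no block), within each table. To compare lines, the JJN3 difference was subtracted from the INA6 difference and divided by the combined SE, with Benjamini-Hochberg adjustment over genes tested in both. The tables were normalised separately, so a gene may have been shrunk unequally in the lines. The part of this in the differences between lines was not tested. The fit was also run on simulated data with independent noise and 100 changed genes per size of change. That is far fewer than were called here, and no result rests on it. Members and lists were chosen with earlier results of these data known. All 10 members, the NSL subunits, up to 3 called genes with the smallest p per partner list and line, neighbours of the member that changed most, and overlapping or copied genes are named. Of 28277 symbols, 27661 were found in the reference name tables. Whether replicate numbers pair libraries is not given in the labels, and 3 libraries per arm cannot settle it. Deviations from the arm means of same-numbered libraries correlated at −0.30 to −0.068 in INA6 and −0.014 to 0.0045 in JJN3. Those of differently numbered libraries correlated at −0.069 to 0.24 in INA6 and −0.056 to 0.064 in JJN3. Alternatives were median centring, quantile normalisation, other minimum means (none, 5), eBayes without trend or robust, the block, and leaving out each library. A partner list of deacetylases and readers is not reported here in full.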

Additional observations from a re-analysis of the deposited data

Results flagged for a closer look

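The changes of 3 members differed between the lines by the test of that difference. MSL1 rose by 0.12 in INA6 and fell by 0.22 in JJN3, a difference, INA6 minus JJN3, of 0.35 (95% interval 0.23 to 0.47, adjusted p = 1.01e-05). That difference was called under each of the 19 alternatives, with adjusted p of at most 0.000236, and the arms of MSL1 did not overlap in either line. The INA6 rise of MSL1 alone was called under 9 of its 13 alternatives. MSL3 was at −0.31 in INA6 and −0.097 in JJN3, a difference of −0.21 (−0.36 to −0.060, adjusted p = 0.0272). ING5 was at 0.25 in INA6 and 0.050 in JJN3, a difference of 0.20 (0.072 to 0.34, adjusted p = 0.0144). Of the 19 alternatives, 14 kept the call of the MSL3 difference and 17 that of ING5. KANSL2 itself fell by 0.39 in INA6 and by 1.21 in JJN3, so the lines differed in the strength of repression as well as in their cells, and these cannot be told apart here.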

How the results depend on the processing

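Of the 9 calls of members within a line, 6 kept their direction and their call under all 13 alternatives: MSL3, ING4 and ING5 in INA6, and KAT7, MSL1 and ING4 in JJN3. The other calls, KAT7 and MSL1 in INA6 and KAT8 in JJN3, were lost under the settings named beside them. Leaving out 1 library gave 1 to 3 members higher in INA6, where 1 remained without non-targeting replicate 1, and 1 to 4 members differing between lines, where 1 remained without INA6 non-targeting replicate 3. Median centring gave 2 members higher in JJN3. With the replicate number as a block, 2 members rose and 2 fell in INA6, 1 rose and 3 fell in JJN3, and 2 differed between lines, while over all genes 2811 rose and 2815 fell in INA6 and 3113 rose and 3092 fell in JJN3. It ended the INA6 call of MSL1 and the call of the MSL3 difference between lines, and no other call of a member, and 0 libraries correlated best with their own number. No call turned round, but 23 values of uncalled genes, all near 0, changed sign. Median centring put KAT6A and KAT6B in INA6 at 0.032 and 0.034. Quantile normalisation put KAT6A and ING5 in JJN3 at −0.052 and −0.014 and the KAT6A difference between lines at 0.00073. Over the libraries left out, KAT6A in INA6 ran between −0.036 and 0.037, KAT6B between −0.043 and 0.016 and KAT8 between −0.0088 and 0.070, KAT5 in JJN3 between −0.044 and 0.049 and PHF20 between −0.080 and 0.0065, and the differences between lines of KAT7 between −0.039 and 0.018 and of MSL2 between −0.022 and 0.042. The cause was not tested. Depth is unknown, so its limits cannot be given.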
